A study of Rattus norvegicus with 24 samples.

Results

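Cxcl9, Cxcl10 and Irf1, 3 genes that interferons are known to induce, were followed through RNA-seq counts of rat microglia. The members were the 3 genes so named, found in the count files by the Ensembl identifiers that the study pairs with them: ENSRNOG00000022242 for Cxcl9, ENSRNOG00000022256 for Cxcl10 and ENSRNOG00000008144 for Irf1. They are 3 of 32754 genes listed, and all 3 were among the 12860 genes that passed the filter on low counts, a CPM (a count scaled to the size of its library) above 1 in at least 3 of the 24 samples. Cxcl9 passed that filter through LPS samples alone. The study listed these genes among NFκB targets that were lower after intermittent hypoxia in LPS-treated females of this same series, so that direction is not independent evidence here. For Cxcl10 the study also reported, by quantitative RT-PCR, a lower level after intermittent hypoxia in LPS-treated females and not in males. That was a post hoc comparison, and the interaction of hypoxia with LPS was not significant there.

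Sprague-Dawley rat pups of both sexes were kept with their dams from postnatal day 1 for 8 days in intermittent hypoxia (IH), in which 2 min episodes at 10.5% and at 21% O2 alternated for 8 hours a day, or in normoxia (Nx), in which room air was delivered. At postnatal day 9 they received an injection of vehicle or of LPS (lipopolysaccharide from the outer membrane of E. coli), and 3 hours later CD11b/c+ cells were isolated with magnetic beads from the brain without cerebellum and olfactory bulbs. Each combination of sex, oxygen and injection had 3 samples, giving 8 groups: male Nx, male IH, female Nx and female IH with vehicle, and the same 4 with LPS. The LPS dose is 0.1 mg/kg in the study's methods, while the sample labels name another unit, and the vehicle is HBSS in the methods and saline in the labels. CD11b/c marks microglia and also other myeloid cells, and the isolate was not checked against cell type markers, because 0 of the 49 marker symbols considered could be paired with an identifier. In bulk RNA a lower level can come from fewer cells of a type or from less RNA per cell, and the counts cannot tell these apart.

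Cxcl9 and Cxcl10 encode secreted chemokines that bind the receptor CXCR3 and attract activated T cells and natural killer cells. Irf1 encodes interferon regulatory factor 1, a transcription factor. In macrophages LPS acts through TLR4, which activates NFκB and also the production of type I interferon; interferon then acts back on the cell. Cxcl10 is known to be induced by NFκB and by interferons of both main types, Cxcl9 mainly by interferon gamma, and Irf1 by interferons and NFκB.

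The sequences just before the 3 genes are shown because the letters that these factors are known to recognise differ between them. They are the 250 bases upstream of each RefSeq gene start on the GRCr8 assembly, on the plus strand, with motif matches in capitals. The counts were made on rn6, so these coordinates do not apply to the count files. Cxcl9 is shown for chr14:16006916-16007165, Cxcl10 for chr14:15988816-15989065 and Irf1 for chr10:38417685-38417934.
Cxcl9: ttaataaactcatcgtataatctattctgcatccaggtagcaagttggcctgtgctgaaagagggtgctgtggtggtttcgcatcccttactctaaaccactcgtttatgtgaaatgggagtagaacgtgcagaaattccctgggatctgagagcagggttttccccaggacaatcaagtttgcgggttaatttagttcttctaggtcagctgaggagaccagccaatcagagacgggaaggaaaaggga
Cxcl10: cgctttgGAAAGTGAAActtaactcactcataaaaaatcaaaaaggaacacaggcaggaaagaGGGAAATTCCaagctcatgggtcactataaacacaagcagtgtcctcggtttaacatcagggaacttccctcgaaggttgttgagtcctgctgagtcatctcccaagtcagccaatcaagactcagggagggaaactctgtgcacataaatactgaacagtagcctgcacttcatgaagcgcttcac
Irf1: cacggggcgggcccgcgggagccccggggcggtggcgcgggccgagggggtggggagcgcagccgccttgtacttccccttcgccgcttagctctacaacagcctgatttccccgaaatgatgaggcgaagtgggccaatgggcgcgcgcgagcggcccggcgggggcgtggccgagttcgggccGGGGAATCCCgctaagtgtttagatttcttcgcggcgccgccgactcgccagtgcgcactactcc

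Motifs were searched on both strands. The core of the interferon-stimulated response element, GAAANNGAAA, matched in Cxcl10 as GAAAGTGAAA, from 243 to 234 bases before the start, and 3.41% of 33469 rat promoters of this length held a match. The NFκB consensus matched in Cxcl10 as GGGAAATTCC, from 187 to 178 bases before the start, and in Irf1 as GGGGAATCCC, from 65 to 56 bases before it, against 3.54% of promoters. These matches did not overlap each other. The form searched requires A or T as one of its central bases; a looser form without that requirement, added after the sequences were seen and held by 6.33% of promoters, also matched GGGAACTTCC from 128 to 119 bases before Cxcl10, with an overlapping match on the other strand from 127 to 118, and gave no further match in Irf1 and none in Cxcl9. Cxcl9 held no match to these letters in its window. The Irf1 window was also the richest in G and C, at 71.2% with 34 CpG, beside 45.2% with 4 CpG for Cxcl10 and 46.4% with 6 CpG for Cxcl9, and the median promoter was at 51.2% with 5 CpG. In the RefSeq table Cxcl9 and Cxcl10 are neighbours on chromosome 14 with 0 genes between them.

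**Figure D1:**
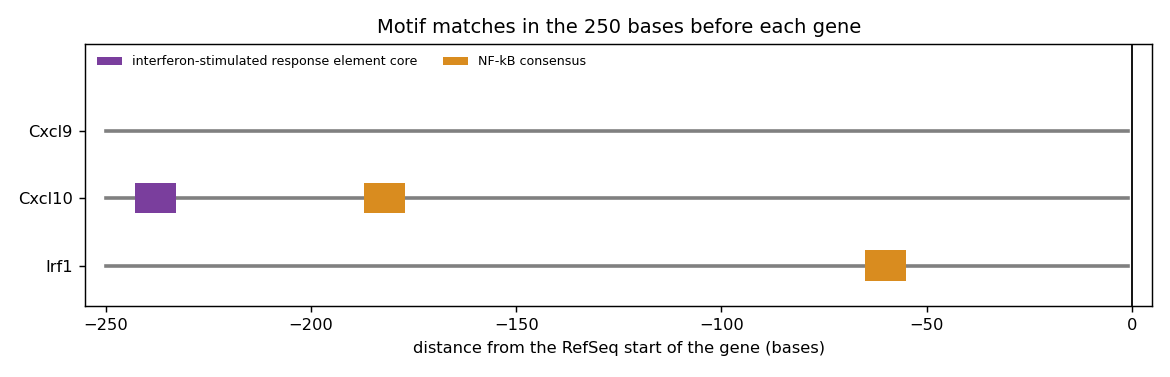
Motif matches in the 250 bases before each gene start. The x axis is the distance from the start in bases, each grey line is a gene's window, and coloured boxes are matches. Cxcl10 holds 2 matches, Irf1 1 and Cxcl9 0.

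Libraries held between 6624453 and 8548714 counts on genes, so that 1 count was worth 0.118 to 0.151 CPM. Vehicle and LPS samples covered similar ranges of depth, from 6624453 to 8169668 and from 6928225 to 8548714 counts. The 2 LPS samples with the least Cxcl10, male Nx LPS 2 and male IH LPS 3, were low in other LPS-induced genes too, as given further on, and values without them stand beside the main results that rest on them. All 24 samples are named by group and replicate number.

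With vehicle, Cxcl9 was close to absent. The 6 Nx vehicle samples held 0 Cxcl9 counts, and the 6 IH vehicle samples held 2 in all, 1 in male IH 3 and 1 in female IH 1. Each library's limit of detection, taken as 3 counts, lay between 0.354 and 0.453 CPM. Cxcl9 was therefore under the limit in every vehicle sample, and no difference between vehicle groups could be seen at this depth. Limits of detection, and the counting intervals given below, cover counting error alone.

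Cxcl10 was detected at a low level in every vehicle sample, from 3.99 to 14.1 CPM. The 3 male Nx samples were at 5.41, 8.71 and 6.72 CPM, and the 3 female Nx samples at 5.58, 5.16 and 4.42 CPM. After IH the 3 males were at 7.61, 9.42 and 11.4 CPM, and the 3 females at 8.21, 3.99 and 14.1 CPM. The Nx and IH vehicle samples overlapped, and the lowest and the highest value both belonged to IH females.

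Irf1 had the steadiest vehicle level, 151 ± 15.7 CPM over 12 samples (SD), between 127 and 174 CPM. The male Nx samples held 174, 138 and 135.5 CPM, the male IH samples 162, 157 and 159 CPM, the female Nx samples 146, 173 and 129 CPM, and the female IH samples 154, 127 and 152 CPM. The Nx and IH samples of each sex overlapped. Within groups, the pooled SD of log2 CPM with vehicle was 0.16 for Irf1 and 0.50 for Cxcl10, beside a median of 0.30 over all genes tested.

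IH with vehicle alone left all 3 genes without a call. Cxcl10 was 0.62 ± 0.27 (SE) higher in IH on the log2 scale, with a 95% interval from 0.03 to 1.21, an unadjusted p of 0.0403 and an adjusted p of 1 from the edgeR quasi-likelihood test. The Irf1 difference was 0.02 ± 0.10 (SE), with an interval from -0.20 to 0.24. In that comparison 0% of the genes tested were called, and 136 had an unadjusted p below 0.05 in edgeR. Between the sexes with vehicle, male minus female, the log2 difference was 0.29 ± 0.27 (SE) for Cxcl10 and 0.08 ± 0.10 (SE) for Irf1, neither of them called (adjusted p = 0.576 and 0.681, edgeR), where 0.07% of genes were.

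In CPM, LPS raised Cxcl10 more than the other members, from at most 14.1 CPM with vehicle to as much as 3192 CPM. In Nx males the 3 LPS samples reached 2616, 123 and 3192 CPM, and in Nx females 2031, 1822 and 2372 CPM. In IH males they reached 1187, 1015 and 23.1 CPM, and in IH females 689, 440 and 1682 CPM. Every LPS sample lay above every vehicle sample, including male IH LPS 3, whose 23.1 CPM was the nearest to the vehicle range. Of all genes tested, 1.58% were higher in all 12 LPS samples than in all 12 vehicle samples, and among the 3 members this held for Cxcl10. At its highest Cxcl10 took 0.297% of all counts of a sample, in male Nx LPS 3, against at most 0.00146% with vehicle.

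Irf1 rose from a higher base and by less. In Nx males the LPS samples held 1247, 159 and 1396 CPM, and in Nx females 951, 940 and 1343 CPM. In IH males they held 614, 782 and 202 CPM, and in IH females 324, 273 and 918 CPM. Male Nx LPS 2, at 159 CPM, was within the vehicle range, and the other 11 LPS samples were above it.

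Cxcl9 went from near 0 to a few CPM. With LPS the Nx males held 6.88, 0.415 and 6.90 CPM (49, 3 and 48 counts), and the Nx females 1.66, 10.8 and 3.46 CPM (11, 84 and 26 counts). The IH males held 11, 7.37 and 0.128 CPM (85, 53 and 1 counts), and the IH females 1.19, 0.128 and 2.59 CPM (10, 1 and 20 counts). Male IH LPS 3 and female IH LPS 2, with 1 count each, could not be told from the vehicle samples at this depth.

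**Figure D2:**
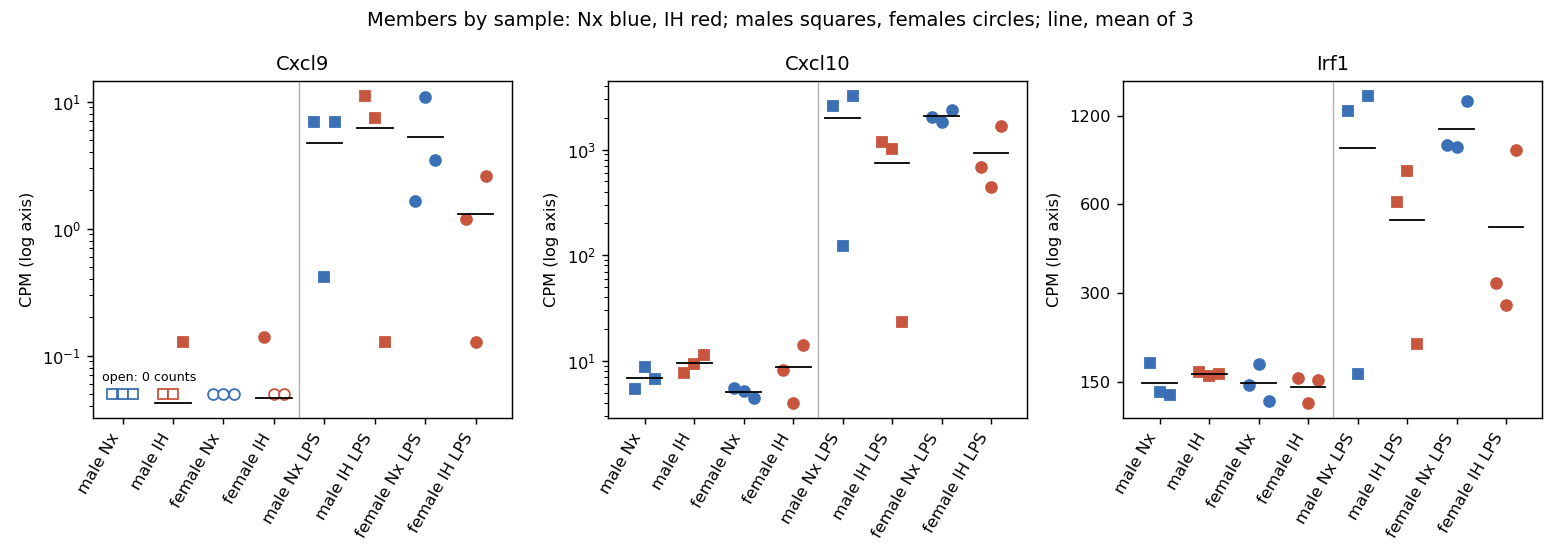
Cxcl9, Cxcl10 and Irf1 in each of the 24 samples. The y axis is CPM on a log scale, each point is a sample (Nx blue, IH red, males squares, females circles, open symbols 0 counts drawn at the foot of the axis), and the line is the mean of 3. Cxcl10 lies from 3.99 to 14.1 CPM with vehicle and from 23.1 to 3192 CPM with LPS, and a single male in each oxygen group lies far below the other LPS samples.

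In Nx, LPS raised Cxcl10 by 8.42 ± 0.87 on the log2 scale (SE, adjusted p = 2.62e-06) and Irf1 by 2.75 ± 0.41, a 6.72-fold change (SE, adjusted p = 9.09e-05). Cxcl9 was also called higher (adjusted p = 0.00116), and its 221 counts in 6 LPS samples against 0 in 6 vehicle samples put it at least 78.2-fold higher, with 3 counts over the vehicle samples as the floor. These are edgeR quasi-likelihood tests adjusted over all 12860 genes, as are all adjusted p-values of the comparisons below. Cxcl10 and Irf1 were called where 9.26% of genes tested were called higher. The Cxcl9 call is not read against that share, here or in the comparisons that follow, because Cxcl9 passed the filter on low counts through the LPS samples in which it was high.

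In IH Cxcl10 and Irf1 were called as well, where 5.05% of genes were called higher, and so was Cxcl9. Cxcl10 rose by 6.51 ± 0.80 on the log2 scale, 91.0-fold (SE, edgeR adjusted p = 2.79e-05), and Irf1 by 1.77 ± 0.39, 3.41-fold (SE, edgeR adjusted p = 0.00683). Cxcl9 had 170 counts with LPS and 2 with vehicle, a ratio of 83.2 after scaling for depth with a counting interval from 22.7 to 692 (edgeR adjusted p = 0.0133). Without female IH LPS 3 the Cxcl9 call just missed the threshold (adjusted p = 0.0519 in edgeR), with a fitted log2 change of 5.09 in place of 5.56.

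Taken sex by sex, Cxcl10 was called in all 4 comparisons of LPS with vehicle. The log2 change was 8.16 ± 1.21 (SE) in Nx males, 8.68 ± 1.24 in Nx females, 6.28 ± 1.11 in IH males and 6.73 ± 1.14 in IH females. Without the 2 low LPS males it was 8.71 ± 0.53 (SE) in Nx males and 6.85 ± 0.49 (SE) in IH males, and without female IH LPS 3 it was 6.0 in IH females, still called. Genes called higher made up 3.16%, 4.49%, 0.832% and 2.5% of those tested in these comparisons, in the same order. In IH males the Cxcl10 call (adjusted p = 0.00617, edgeR) was lost when any single male IH vehicle sample was left out, with an adjusted p of 0.0507 to 0.0754, and in an edgeR fit to those 6 samples alone, with an adjusted p of 0.117.

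Irf1 was called in Nx males (2.65 ± 0.57, adjusted p = 0.0114, edgeR) and Nx females (2.85 ± 0.58, adjusted p = 0.00471, edgeR). In IH its log2 change was 1.74 ± 0.55 in males (adjusted p = 0.198, edgeR) and 1.81 ± 0.55 in females (adjusted p = 0.0855, edgeR), and neither passed. With DESeq2 both IH changes passed (adjusted p = 0.0469 in males and 0.0160 in females), and with the edgeR likelihood ratio test the female one did (adjusted p = 0.0260). Without female IH LPS 3 the female IH change was 1.05 (adjusted p = 0.488, edgeR). Without male IH LPS 3 the male IH change was 2.13 (adjusted p = 0.0386, edgeR) and passed. The Irf1 call in Nx males was lost when any of male Nx 1, 2 or 3 or male Nx LPS 1 or 3 was left out, with an adjusted p of 0.0516 to 0.0725, and in a fit to the 6 samples compared, where the log2 change was 2.65 and the adjusted p 0.106 in edgeR.

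Cxcl9 was called in Nx males, at least 37.0-fold higher on 100 counts against 0 (adjusted p = 0.0383, edgeR, and 0.0612 with a replicate block), and in Nx females, at least 41.0-fold higher on 121 counts against 0 (adjusted p = 0.0263, edgeR). In IH males it had 139 counts against 1, a ratio of 144 with a counting interval from 25.3 to 5710 (adjusted p = 0.0856, edgeR). In IH females it had 31 counts against 1, a ratio of 28.7 with a counting interval from 4.79 to 1172 (adjusted p = 0.294, edgeR). Neither IH comparison passed. Both Nx calls were fragile: 5 of the 6 fits that left out 1 sample of the comparison lost them, in males and in females alike, with adjusted p up to 0.131 and 0.0915 in edgeR. Female Nx LPS 2 held 84 of the 121 counts in Nx females. Without it the fitted log2 change there was 7.29 in place of 8.34. The IH male comparison passed with all samples kept under DESeq2 (adjusted p = 0.0184), under the edgeR likelihood ratio test (adjusted p = 0.00401) and without the filter on low counts (adjusted p = 0.0374, edgeR), and in the quasi-likelihood test without male IH LPS 3 (adjusted p = 0.0109, edgeR).

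The question behind IH is whether it changed the response to LPS. For each member the fitted rise was smaller in IH than in Nx, and none of these differences passed the test. The difference between the LPS effects, IH minus Nx, was -1.91 ± 0.96 on the log2 scale for Cxcl10 (SE, 95% interval -3.91 to 0.09, unadjusted p = 0.0605 in edgeR) and -0.98 ± 0.54 for Irf1 (SE, 95% interval -2.10 to 0.15, unadjusted p = 0.0848 in edgeR). For Cxcl9 it was -2.69 ± 2.80 (SE, unadjusted p = 0.35 in edgeR), a value that depends on how its vehicle zeros are treated. The adjusted p was 1.00 for all 3, 0% of genes were called, and 182 genes had an unadjusted p below 0.05 in edgeR.

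Among the LPS samples themselves, IH minus Nx was -1.28 ± 0.78 for Cxcl10 (SE, 95% interval -2.97 to 0.41), -0.95 ± 0.49 for Irf1 (SE, 95% interval -2.01 to 0.11) and -0.81 ± 0.81 for Cxcl9 (SE, 95% interval -2.58 to 0.95), on the log2 scale. None was called (adjusted p = 1.00, edgeR), and neither was any other gene (0%), with 223 at an unadjusted p below 0.05. The 3 female Nx LPS samples lay above the 3 female IH LPS samples for Cxcl10 and Irf1, as 5.28% of all genes did, and since the study listed both genes from this contrast nothing is read from that. Cxcl9 overlapped between those groups.

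Leaving out male Nx LPS 2 and male IH LPS 3, a choice made after their values were seen, changed the spread and hardly the size of these differences. Over the 5 remaining Nx LPS samples Cxcl10 lay between 1822 and 3192 CPM and over the 5 remaining IH LPS samples between 440 and 1682 CPM, without overlap. Irf1 lay between 940 and 1396 CPM in Nx and between 273 and 918 CPM in IH, also without overlap. Cxcl9 overlapped. Of all genes, 0.319% separated these samples in this direction, but nothing is read from that share either, since the 2 samples were left out for their low Cxcl10 and the rest include the female samples on which the study listed these genes.

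In the fit without these 2 samples, IH minus Nx among LPS samples was -1.27 ± 0.30 for Cxcl10 (SE, unadjusted p = 0.00154 in edgeR) and -1.0 ± 0.30 for Irf1 (SE, unadjusted p = 0.00749 in edgeR). The difference between the LPS effects was -1.90 ± 0.43 for Cxcl10 (SE, unadjusted p = 2.83e-04 in edgeR) and -1.03 ± 0.32 for Irf1 (SE, unadjusted p = 0.00485 in edgeR). These p-values are not support for a difference, and the smaller errors follow from the choice, since the 2 samples were left out for their low values and the females that remain are those on which the study listed these genes. Adjusted over all genes the differences still did not pass, with the smallest adjusted p at 0.911 for Cxcl10, and 0 genes were called in either comparison.

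**Figure D3:**
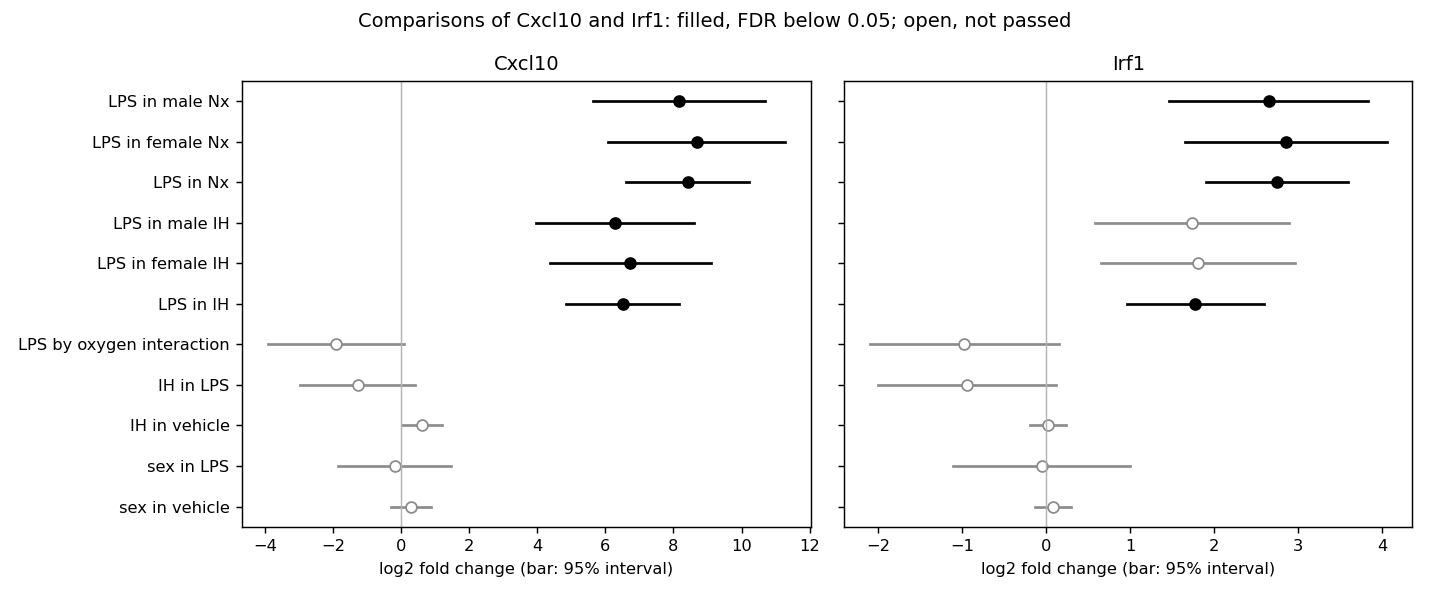
Log2 fold changes of Cxcl10 and Irf1 in 11 comparisons. The x axis is the log2 fold change, points are fitted values, bars are 95% intervals, and filled points have an FDR below 0.05. Sex is male minus female and oxygen is IH minus Nx. The LPS effects lie to the right of 0, and the IH, sex and interaction intervals include 0 except for Cxcl10 in vehicle (0.03 to 1.21), which did not pass after adjustment.

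Sex made no difference that passed the test in any member. With LPS, male minus female was -0.20 ± 0.77 for Cxcl10 (SE, 95% interval -1.86 to 1.47), -0.06 ± 0.48 for Irf1 (SE, 95% interval -1.11 to 0.99) and 1.04 ± 0.81 for Cxcl9 (SE, adjusted p = 0.679, edgeR), where 0.0467% of genes were called. The direction for Cxcl10 and Irf1 turned without the 2 low LPS males, to 0.37 and 0.39, still not called. The LPS effect in males minus that in females was -0.49 ± 0.96 (SE) for Cxcl10 and -0.14 ± 0.54 (SE) for Irf1 (0% of genes called, 169 at an unadjusted p below 0.05 in edgeR), and turned to 0.08 and 0.31 without those samples. The effect of IH in LPS males minus that in LPS females was -0.29 ± 1.53 (SE) for Cxcl10, 0.26 ± 0.97 (SE) for Irf1 and 2.36 ± 1.63 (SE) for Cxcl9, with 0% of genes called and 140 at an unadjusted p below 0.05 in edgeR.

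The spread within LPS groups was carried largely by the 2 low males for Cxcl10 and Irf1. The pooled SD of log2 CPM within LPS groups was 1.91 for Cxcl9, 2.13 for Cxcl10 and 1.14 for Irf1, beside a median of 0.35 over all genes. More than 98% of genes varied less: 99.8% less than Cxcl9, 99.9% less than Cxcl10 and 98.8% less than Irf1. Without the 2 low males the SD was 1.13 for Cxcl9, 0.59 for Cxcl10 and 0.58 for Irf1, and 99.1%, 85.2% and 84.8% of genes varied less. The 2 samples were picked for their low Cxcl10, so a smaller spread without them follows in part from that choice. The 3 female Nx LPS samples were close to each other in Cxcl10, from 1822 to 2372 CPM, and in Irf1, from 940 to 1343 CPM.

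From the highest to the lowest, Cxcl10 ran through male Nx LPS 3, male Nx LPS 1, female Nx LPS 3, female Nx LPS 1, female Nx LPS 2, female IH LPS 3, male IH LPS 1, male IH LPS 2, female IH LPS 1, female IH LPS 2, male Nx LPS 2 and male IH LPS 3. Irf1 gave nearly the same order, with male Nx LPS 2 at the foot in place of male IH LPS 3. Of the 66 pairs of LPS samples, 63 were ordered alike by Cxcl10 and Irf1. Cxcl9 followed another order, led by male IH LPS 1, female Nx LPS 2 and male IH LPS 2, and shared 49 of the 66 pairs with Cxcl10 and 46 with Irf1. Group means of Cxcl10 were lower in IH in both sexes: the Cxcl10 mean was 2075 ± 278 CPM for female Nx LPS, 1977 ± 1631 for male Nx LPS, 937 ± 657 for female IH LPS and 742 ± 628 for male IH LPS (SD over 3 samples), or 2904 ± 408 and 1101 ± 122 for the 2 other samples of male Nx LPS and male IH LPS, and the neighbours of the order with all samples did not differ beyond their spread. The Cxcl9 mean in males was instead higher in IH, 6.16 ± 5.52 CPM against 4.73 ± 3.74 CPM in Nx (SD over 3 samples), or 9.17 against 6.89 CPM without the 2 low samples, while in females it was 1.30 ± 1.24 CPM in IH and 5.29 ± 4.82 CPM in Nx.

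Across the 12 LPS samples Cxcl10 and Irf1 varied together, with a Spearman rho of 0.979 (permutation p = 1.00e-05, the smallest these resamples can give) and a Pearson r of 0.895 on log2 CPM (permutation p = 3.00e-05, adjusted over 3 pairs 9.00e-05). The 2 low males stand apart from the other samples, and over the other 10 samples r was 0.966 (permutation p = 3.00e-05) and rho 0.976. On deviations from the 4 group means r was 0.914 (exact permutation within groups, p = 0.00386), and 0.929 without the 2 low males (exact permutation, p = 0.0347). These tests were two-sided. The slope of Irf1 on Cxcl10, both on the log2 scale, was 0.474 with all 12 samples and 0.872 without the 2 low males.

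Cxcl9 varied with them less tightly. Its r was 0.767 with Cxcl10 (permutation p = 0.00195, adjusted 0.00248) and 0.803 with Irf1 (permutation p = 0.00248, adjusted 0.00248), and its rho was 0.594 (permutation p = 0.0458, adjusted 0.0637) and 0.559 (permutation p = 0.0637, adjusted 0.0637). Without the 2 samples farthest from the Cxcl9 median, male IH LPS 3 and female IH LPS 2, r was 0.670 (permutation p = 0.0269) with Cxcl10 and 0.686 (permutation p = 0.0252) with Irf1, while rho fell to 0.309 and 0.273. Without the 2 low males r was 0.630 (permutation p = 0.0499) with Cxcl10 and 0.670 (permutation p = 0.0355) with Irf1, and rho again 0.309 (permutation p = 0.388) and 0.273 (permutation p = 0.448). The rank relation therefore rested on the lowest samples, whichever pair was left out. Within groups the deviations gave 0.910 (exact permutation p = 0.0116) and 0.829 (exact permutation p = 0.0177), but 0.622 (exact permutation p = 0.285) and 0.530 (exact permutation p = 0.410) without the 2 low males, so the within-group relation of Cxcl9 rested on those samples. Cxcl9 values rest on 1 to 85 counts a sample, so counting error adds to their scatter.

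**Figure D4:**
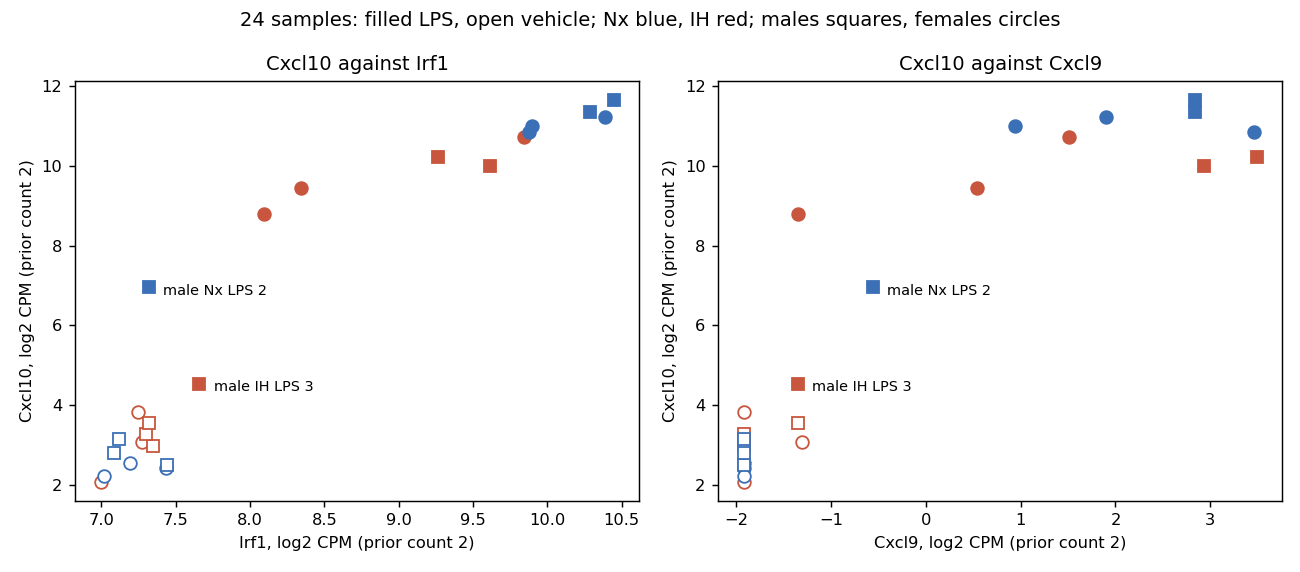
Cxcl10 against Irf1 and against Cxcl9 in 24 samples. Axes are log2 CPM with a prior count of 2, filled symbols are LPS samples and open symbols vehicle samples (Nx blue, IH red, males squares, females circles). The LPS samples rise together in Cxcl10 and Irf1 (rho 0.979), and male Nx LPS 2 and male IH LPS 3 lie nearest the vehicle samples in Cxcl10.

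Ratios of counts within a library, compared between samples and not corrected for gene length, showed where the members parted. With vehicle there were 0.0298 to 0.0926 Cxcl10 counts for each Irf1 count. With LPS there were 1.30 to 2.29 in 10 samples, a narrow range over which Cxcl10 itself went from 440 to 3192 CPM. The 2 exceptions were male Nx LPS 2 with 0.774 and male IH LPS 3 with 0.114.

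For each 1000 Cxcl10 counts, Cxcl9 had 9.25 in male IH LPS 1 (95% counting interval 7.38 to 11.4), 7.26 in male IH LPS 2 (5.43 to 9.51) and 5.90 in female Nx LPS 2 (4.71 to 7.32). In male IH LPS 3 the value was 5.52, from 1 count. The other 8 LPS samples lay between 0.291 and 3.36, the lowest being female IH LPS 2 (0.00737 to 1.62). These samples were picked out after the ratios were seen, and the intervals hold no difference between animals.

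The 2 low males were low in other NFκB targets too. The study pairs identifiers with 9 more genes of its NFκB list: the cytokines Il1a, Il6 and Csf3, the neutrophil-attracting chemokine Cxcl1, the adhesion genes Sele and Icam1, the prostaglandin synthase gene Ptgs2, the apoptosis inhibitor gene Birc3, and Cd83, a marker of activated antigen-presenting cells. In 6 of the 9 these samples held the lowest and second lowest values of the 12 LPS samples, and in 8 of the 9 both were among the lowest 3. The share of all genes tested with such an order is not given here. The counts are therefore not read as particular to these targets. In Birc3 they held 12 and 6.51 CPM, with 30.0 CPM or more in the other LPS samples and at most 1.23 CPM with vehicle. In Icam1 they held 229 and 228 CPM, with 553 CPM or more in the others and at most 146 CPM with vehicle. Both samples were within the vehicle range in Il1a, at 20.6 and 19.0 CPM against a highest vehicle value of 33.4 CPM, as was male IH LPS 3 in Ptgs2, at 1.02 against 1.11 CPM. In Csf3 male Nx LPS 2 held 1 count, under the limit of 3, where vehicle samples held 0. Their part in the differences between groups is given by the values without them, and what set them apart was not tested. The counts do not show whether these 2 pups received LPS as the others did, and their labels were kept.

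Of the 9 companion genes, 9 were called higher with LPS in Nx (median log2 change 4.43) and 8 in IH (median 3.55), where 9.26% and 5.05% of all genes were. The exception in IH was Il1a. Of the 9, Csf3, Cxcl1, Ptgs2 and Sele passed the filter on low counts because of the LPS samples, so these 4 had to be higher with LPS and the counts are no support. Among LPS samples the 9 genes were lower in IH by a median log2 difference of -0.81, from -1.07 to -0.54, beside -1.28 for Cxcl10, -0.95 for Irf1 and -0.81 for Cxcl9, and none was called. They were listed by the study for being lower in IH females, and they share the LPS samples with the members.

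The wider interferon lists could not be followed. Of 134 symbols in 9 lists of ligands, receptors, signalling genes, interferon regulatory factors, interferon-stimulated genes, IRF1 targets, TLR4 pathway genes, CXCR3 genes and early NFκB targets, 9 had an identifier. In the early NFκB list 6 of 15 genes had one, and 6 of these 6 were called higher with LPS in Nx (median log2 change 3.84) and 5 in IH (median 3.07), beside 9.26% and 5.05% of all genes. These 6 are among the 9 companion genes already counted. Among them Cxcl1 and Ptgs2 passed the filter on low counts because of the LPS samples. They had to be higher with LPS, so these counts are no support either. In the CXCR3 list the 2 of 6 genes with an identifier were Cxcl9 and Cxcl10, and among the interferon regulatory factors the 1 of 11 was Irf1. Interferon genes and most interferon-stimulated genes were not analysed here.

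Likeness to the members was measured as Pearson's r of log2 CPM over the 12 LPS samples against the 12859 other genes tested, as a description. Birc3 was the gene most like Cxcl10 (r = 0.979, rank 1) and Icam1 stood at rank 11 (r = 0.951), ahead of Irf1 at rank 131 and Cxcl9 at rank 776. These ranks depended on the 2 low males: over the other 10 LPS samples Irf1 was at rank 1 for Cxcl10 and Cxcl10 at rank 1 for Irf1 (r = 0.966), with Birc3 at rank 3 (r = 0.956) and Icam1 at rank 9 (r = 0.933) for Cxcl10. Over all 12 samples, for Irf1 the nearest genes with a name were Icam1 (r = 0.938, rank 20) and Birc3 (r = 0.931, rank 28), ahead of Cxcl10 at rank 80. For Cxcl9 they were Ptgs2 (r = 0.889, rank 28), Il6 (r = 0.876, rank 53) and Cxcl1 (r = 0.842, rank 124), ahead of Irf1 at rank 259 and Cxcl10 at rank 427, and without the 2 low males Il6 stood at rank 25 (r = 0.893), Ptgs2 at rank 134, Irf1 at rank 716 and Cxcl10 at rank 956. The genes at rank 1 for Cxcl9 and Irf1 have no name here: ENSRNOG00000001108 (r = 0.948) and ENSRNOG00000033433 (r = 0.976). The 5 genes most like each member were 15 different genes, with 0 shared. An r above 0.9 was reached by 104 genes for Cxcl10, 68 for Irf1 and 19 for Cxcl9. All these values share the same 12 libraries.

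**Figure D5:**
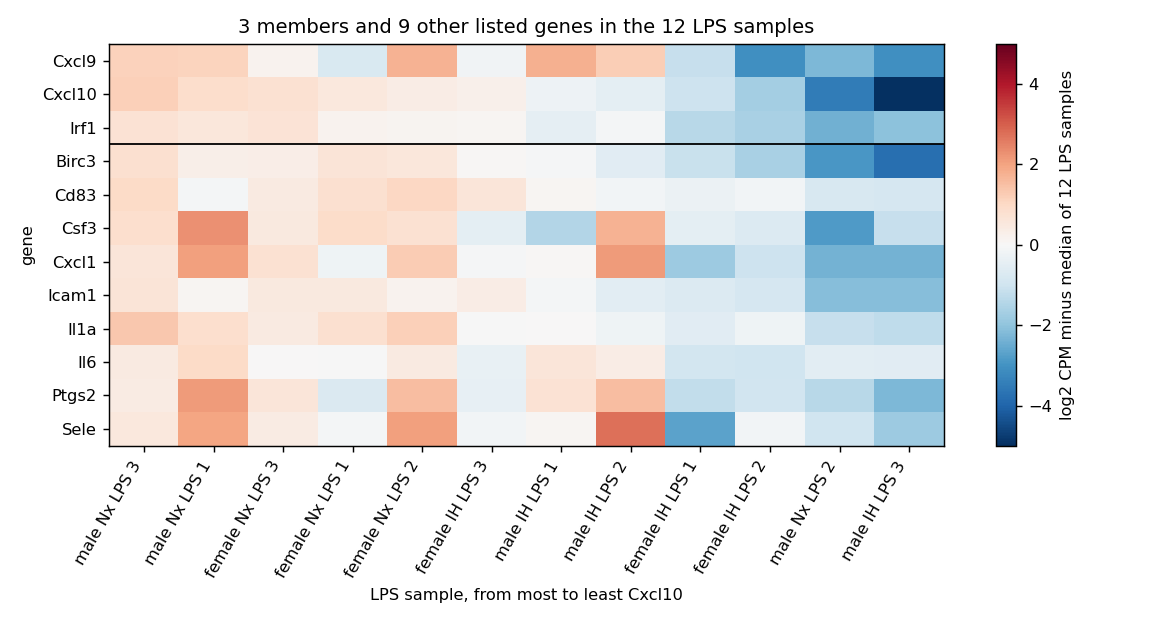
Members and 9 companion genes in the 12 LPS samples, ordered from most to least Cxcl10. Colour is log2 CPM minus the gene's median over the 12 samples, with the scale ending at -5 and 5. Irf1, Birc3 and Icam1 fade from left to right with Cxcl10, whereas Cxcl9 stays high in male IH LPS 1 and 2, as Ptgs2 and Il6 do.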

How the data were processed

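Poly(A) RNA of CD11b/c+ cells was sequenced from 24 rat samples, 3 biological replicates in each of 8 groups. The authors aligned stranded reads with TopHat 2.1.0 to rn6, counted them per Ensembl gene with HTSeq 0.6.1 (reverse-stranded) and deposited raw counts per sample, unnormalised and unfiltered. HTSeq's summary entries, which name no gene, were kept out of all totals: reads without a feature were 14.7 to 21.2% of reads, those not unique 11.7 to 23.4%, and ambiguous ones 0.265 to 0.435%. Gene totals were 6624453 to 8548714 (median 7532796.5). Reads were not deduplicated by molecular identifiers. The counting intervals of ratios cover counting error only. Intervals of log2 changes come from the edgeR fits and include the spread between samples.

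The analysis used edgeR 4.0.16 in R 4.3.3, with CPM above 1 in at least 3 samples, TMM scaling, quasi-likelihood F test, Benjamini-Hochberg adjustment over 12860 genes and an FDR threshold of 0.05. LPS effects were fitted to all 24 samples with 8 group means, and IH and sex effects to the 12 vehicle or 12 LPS samples. The SE of a fitted log2 change was its absolute size divided by the square root of the F statistic. The 95% interval was built from that SE. CPM and log2 CPM (prior count of 2) used the TMM-scaled totals of the genes tested. Correlations used Python 3.11.15 with scipy 1.17.1 and 100000 resamples. Alternatives were DESeq2 1.42.0, edgeR's likelihood ratio test, RLE scaling, no filter, other samples in the fit, a replicate block, each sample left out and, added after seeing the data, 2 low samples left out. The scripts were tested on simulated data. No pair of replicates agreed within sampling noise (chi-square per degree of freedom of at least 7.65).

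The members and gene lists were chosen with earlier results of these data known. The files give Ensembl identifiers without names, and names are those of the 21 identifiers that the paper pairs with symbols. The rule named the members, the listed genes and the 5 most like each member. Promoter sequences came from RefSeq (GRCr8), and all 3 members matched by symbol. No batch or date was given in the sources used here.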

Additional observations from a re-analysis of the deposited data

Results flagged for a closer look

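In sets of 6 samples with the same oxygen and injection, a sample's gap to its nearest neighbour was divided by the range of the set on the log2 scale. In 4 of 11 sets a sample lay farther out than Dixon's 95% limit, where chance gives about 1 in 20 independent sets; these sets share samples and genes that vary together, and 2 of the 4 are the same sample. Male Nx LPS 2 was the low extreme of the Nx LPS samples in Cxcl10 (gap over range 0.827) and in Irf1 (0.818). Male IH LPS 3 was the low extreme of the IH LPS samples in Cxcl10 (0.687). Female IH 2, at 127 CPM, was the low extreme of the IH vehicle samples in Irf1 (0.723), over a range that ended at 162 CPM. What set these samples apart was not tested.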

How the results depend on the processing

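In the tests across all genes, Cxcl10 and Irf1 kept their LPS calls in Nx and in IH under all 19 alternatives run for each, and Cxcl9 kept its Nx call under 19 and its IH call under 18 of 19. In 30 fits of the difference between LPS effects and 19 of IH in LPS samples, none of the 3 was called.

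Without the 2 low LPS males the number of genes called was 1602 for LPS in IH (921 with all samples), 1366 for LPS in male Nx (523) and 583 for LPS in male IH (110). DESeq2 gave 812 in male Nx, 250 in male IH and 678 in female IH (416), and for sex 32 with vehicle (9) and 73 with LPS (6). The likelihood ratio test gave 238 in male IH, 33 for sex with vehicle and 85 for sex with LPS. A fit to the 6 samples compared gave 107 in male Nx, 25 in male IH and 482 in female Nx (827). The cause of these differences was not tested. Leaving out 1 sample gave 602 to 1375 genes for LPS in IH, 161 to 1028 in male Nx, 26 to 353 in male IH, 335 to 786 in female Nx, 153 to 473 in female IH and 0 to 2 for IH in vehicle.

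The replicate numbers of the labels did not pair the samples as a whole: over 84 pairs with the same number the correlation of deviations from the group means ran from -0.570 to 0.487 (median 0.0685), above 0.1 in 37. Of the groups compared directly, male Nx and male Nx LPS had all 3 pairs above 0.1 (0.165 to 0.378). With a replicate block 27 genes differed by sex with LPS, 2029 were called for LPS in Nx and 907 for LPS in IH. Cxcl10 then turned to 0.32 for IH by sex in LPS and Irf1 to 0.020 for sex in LPS, neither called, and Cxcl9 lost its male Nx call (adjusted p = 0.0612, edgeR).

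Without the 2 low LPS males, LPS by sex turned to 0.078 for Cxcl10 and 0.31 for Irf1, and sex in LPS to 0.37 and 0.39. Leaving out 1 sample, log2 differences that changed sign ran from -0.85 to 0.45 (Cxcl10) and -0.24 to 1.03 (Irf1) for IH by sex in LPS, -0.46 to 0.16 (Cxcl10) and -0.26 to 0.32 (Irf1) for sex in LPS, -0.34 to 0.24 (Irf1) for LPS by sex, -0.023 to 0.079 (Irf1) for IH in vehicle and -0.95 to 0.93 (Cxcl9) for sex in vehicle. A fit to the samples compared adds nothing for the interactions that use all 24.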
